A study of Mus musculus with 13 samples.

Results

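The WNT ligands, receptors, antagonists and target genes of mouse tongue epithelium are described here, 54 genes of the 24972 in the authors' deposited table. They were chosen by name, with earlier results of these data known. The names were symbols that begin with Wnt and a digit, or with Fzd, Dkk or Sfrp. Added were the R-spondin receptors Lgr4, Lgr5 and Lgr6 and a fixed set of further pathway genes. Of 57 rows that fit these names, Dkk4, Wnt1 and Wnt8b had no reads and are not counted. The 54 members comprised 18 of the ligand class (17 ligands and Porcn, the enzyme that acylates them), 15 receptors, 13 antagonists and 8 targets and effectors. PolyA RNA was sequenced from 6 tongue epithelium samples of genotype Krt14-Cre(+); LSL-H3K36M, called H3K36M here, and from 7 control samples of genotype Krt14-Cre(-); LSL-H3K36M. Both groups thus carried the inducible mutant allele, a histone H3 whose lysine 36 is replaced by methionine, and the groups differed in the Cre transgene. Cre was driven by the promoter of Krt14, which is active in basal cells of stratified epithelia, so the Cre transgene and the mutant histone cannot be told apart as a source of a difference. Age and sex are not in the labels used here, and the labels do not say which samples came from separate animals.

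WNT proteins are lipid-modified secreted signals. They bind a frizzled receptor (FZD), and with the co-receptors LRP5 and LRP6 they stop the destruction of β-catenin, which then activates target genes together with TCF and LEF factors. Other WNT signals, of which WNT5A is the best known, act through frizzled receptors without β-catenin, and FZD3 and FZD6 belong to the planar cell polarity branch that orients hair follicles in mouse skin. Secreted SFRP, DKK and WIF1 proteins, the deacylase NOTUM and the ubiquitin ligases RNF43 and ZNRF3 limit the signal. In the tongue, WNT and β-catenin signalling is known for its part in the development of taste papillae.

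The deposited levels were fitted group values in normalised counts, with no value of a single sample, so the spread between samples is seen only through the standard error (SE) of each log2 fold change. The labelled tissue was checked against its markers, and all 13 genes of the stratified tongue epithelium list had reads, led by the oral keratin Krt13 with a fitted level of 941187 in H3K36M and 1161189 in control in the authors' deposited table. That list summed to 2003773 normalised counts in H3K36M and 2534201 in control in the authors' deposited table. Of its 13 genes 3 were lower (Krt76, Krt14, Krt36), and Krt13 was not called (log2 fold change −0.30, SE 0.28). Log2 fold changes of the 13 genes ran from −1.93 to 0.36, with a median of −0.30. Those above 0 were Krt5 at 0.04 (SE 0.48), Trp63 at 0.02 (SE 0.30), Sfn at 0.14 (SE 0.32) and Dsg3 at 0.36 (SE 0.39). Skeletal muscle markers summed to 27627 in H3K36M and 100614 in control, with 0 of 12 called in the authors' deposited table. Their median log2 fold change was −1.86. Minor salivary gland markers summed to 15180 in H3K36M and 52 in control, with 7 of 8 tested genes higher in the authors' deposited table. Most of that sum was Muc5b, with 12880 in H3K36M and 18.6 in control in the authors' deposited table, which has no p because it was set aside as an outlier, as were Lpo and Mucl2. Fibroblast markers summed to 14220 in H3K36M and 15801 in control, with 0 of 10 called, by the authors' deposited table. Neutrophil markers summed to 1809 in H3K36M and 144 in control by the authors' deposited table. All 6 tested genes of that list had a log2 fold change above 0 (1.18 to 4.08), 2 were higher (S100a9 and S100a8, which keratinocytes also express), and 4 had an unadjusted p below 0.05, among them Cxcr2 at 1.56 (adjusted p = 0.0604) and Retnlg at 3.83 (adjusted p = 0.192, DESeq2), in the authors' deposited table. No gene of the endothelium, smooth muscle, nerve, taste bud, macrophage or T cell lists was called (DESeq2 by the authors). At an unadjusted p below 0.05 these 6 lists held 1 gene, Pou2f3. The macrophage list summed to 5616 in H3K36M and 1150 in control, of which Lyz2, set aside as an outlier, made up 4878 in H3K36M and 486 in control in the authors' deposited table. In bulk RNA, fewer cells of a type and less RNA per cell cannot be told apart. The part of these other cells in the WNT results below was not tested.

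Expression of 3 members was lower in H3K36M and of 0 higher: the receptor genes Fzd3 and Fzd6 and the ligand gene Wnt5a. Of the 54 members 49 had an adjusted p, and 3 of 49 is 6.12%, beside 3.43% of all 17449 tested genes called in either direction, 1.59% called lower and 1.85% called higher (adjusted p below 0.05, DESeq2 by the authors). An unadjusted p below 0.05 was reached by 2 members whose estimate lay above 0 and 6 below, beside 9.82% of all tested genes, 5.04% above and 4.79% below. Over the 49 tested members the log2 fold changes of the authors' deposited table had a median of −0.05, against 0.07 over all tested genes, and 28 members lay below 0 and 21 above. That is 57.1% below 0, beside 43.4% of all tested genes, and at a mean of at least 50 it was 66.7% of 30 members, beside 44.1% of all genes. By role the median log2 fold change was 0.14 for the ligand class, −0.07 for receptors, −0.16 for antagonists and −0.23 for targets and effectors. Of the other 5 members, Fzd9 was set aside as an outlier by the authors' tool, and Wnt7a, Wnt8a, Dkk1 and Sp5 had too few reads for an adjusted p.

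**Figure D1:**
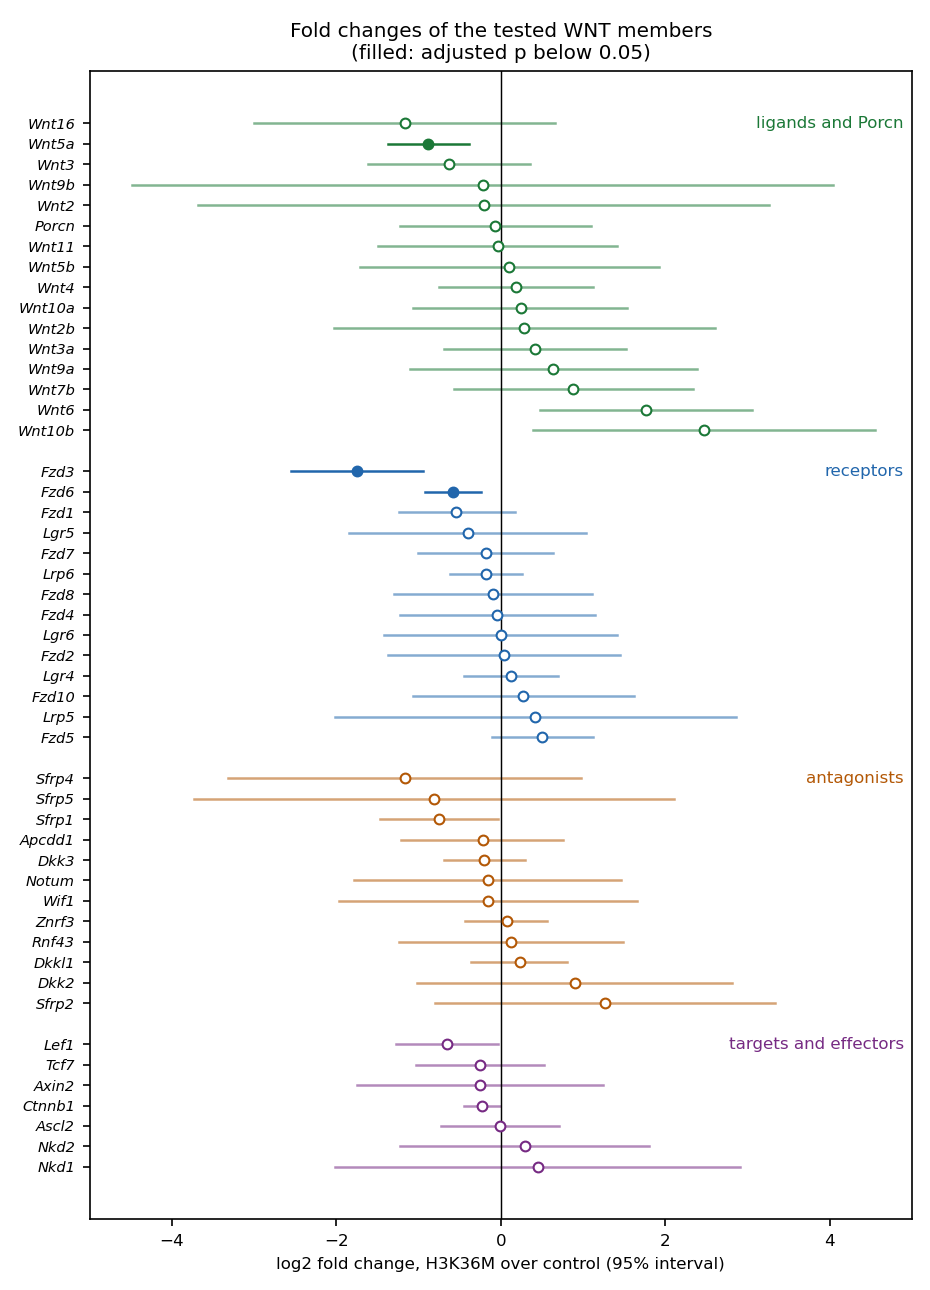
Log2 fold change of H3K36M over control with its 95% interval for the 49 tested members, grouped by role and sorted within it; filled points passed an adjusted p of 0.05. The filled points are Wnt5a at −0.88, Fzd3 at −1.75 and Fzd6 at −0.58, all left of 0.

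Wnt5a, the ligand best known for signalling without β-catenin, was the only called gene among 16 tested genes of the ligand class. This is 6.25%, beside 1.59% of all tested genes called lower. The fitted level of Wnt5a was 443 normalised counts in H3K36M and 813 in control in the authors' deposited table. That is a log2 fold change of −0.88 (SE 0.25, 95% interval −1.37 to −0.39, adjusted p = 0.0169), by the authors' deposited table, and the level fell by 45.6%. The gene lies on chromosome 14 (28504750 to 28527448, plus strand, GENCODE M21 on GRCm38). An antisense gene, Gm2670, overlaps its exons on the other strand, and whether counting used the strand is not given in the sources used here. Its close relative Wnt5b had 7.85 normalised counts in H3K36M and 7.30 in control, a log2 fold change of 0.10 (SE 0.93) in the authors' deposited table.

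Wnt4 and Wnt7b were the most abundant ligand transcripts and neither passed the threshold. Per kilobase of exon, Wnt4 had 583 normalised counts in H3K36M and 514 in control, and Wnt7b 324 in H3K36M and 176 in control, computed from the authors' deposited table. Wnt5a came next among the ligands with 56.6 per kilobase in H3K36M and 104 in control, followed by Wnt10a with 54.2 in H3K36M and 46.0 in control. On this per-length scale Wnt5a stood near Wnt10a in H3K36M and above it in control. Differences of level between genes were not tested, since no value of a single sample is at hand. The log2 fold change was 0.18 for Wnt4 (SE 0.48), 0.88 for Wnt7b (SE 0.74) and 0.24 for Wnt10a (SE 0.67) in the authors' deposited table. Wnt7b, a ligand that acts through β-catenin in several epithelia, thus had as large a point estimate as Wnt5a in the other direction, but its 95% interval ran from −0.57 to 2.34.

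Wnt6 and Wnt10b had the highest positive estimates among the tested ligands and missed the adjusted threshold. Wnt6 stood at 26.8 normalised counts in H3K36M and 7.86 in control, a log2 fold change of 1.77 (SE 0.66, p = 0.00702, adjusted p = 0.144 by DESeq2) in the authors' deposited table. Wnt10b, a ligand known from hair follicles, stood at 8.42 in H3K36M and 1.52 in control, a log2 fold change of 2.47 (SE 1.06, p = 0.0201, adjusted p = 0.298 by DESeq2) in the authors' deposited table. Wnt3, a β-catenin ligand, had 52.8 normalised counts in H3K36M and 81.8 in control, with a log2 fold change of −0.63 (SE 0.50) in the authors' deposited table. Porcn, the acyltransferase that lipidates WNT ligands for secretion, had 857 in H3K36M and 896 in control, with a log2 fold change of −0.07 (SE 0.60) in the authors' deposited table. The remaining 8 tested ligands were Wnt3a, Wnt9a, Wnt11, Wnt5b, Wnt2b, Wnt16, Wnt9b and Wnt2. Their mean levels ran from 0.846 to 42.5 normalised counts and their log2 fold changes from −1.17 to 0.64 in the authors' deposited table, 4 above and 4 below 0, with a smallest adjusted p of 0.911 by DESeq2. Wnt7a and Wnt8a summed to no more than 3 normalised counts in each group, so no fold is given.

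**Figure D2:**
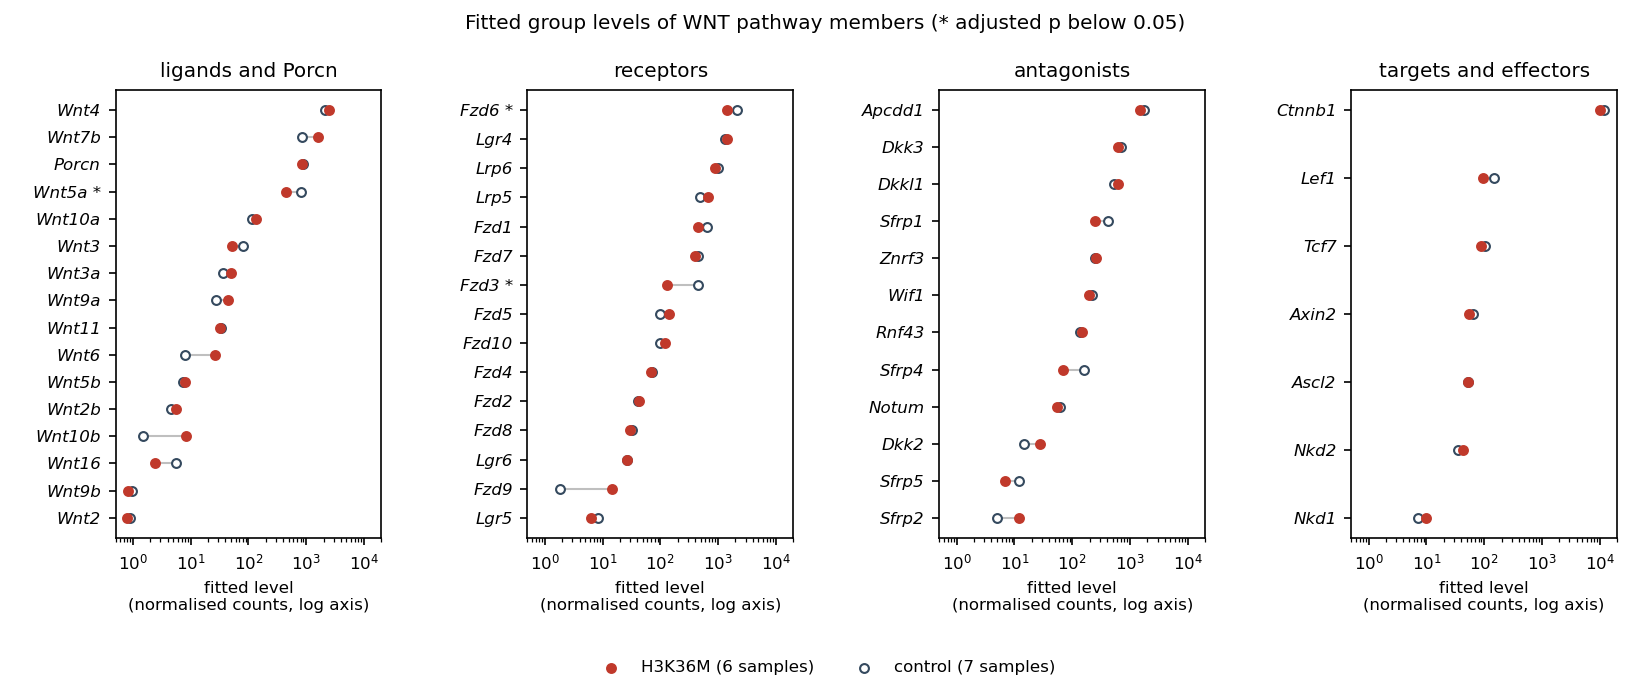
Fitted level of each member in normalised counts (log axis) in H3K36M (filled) and control (open), by role; the 4 members of lowest mean are left out and an asterisk marks an adjusted p below 0.05. The pairs of points are widest apart for Fzd9, Wnt10b, Wnt6 and Fzd3, of which only Fzd3 passed the threshold.

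Among the receptors, Fzd3 and Fzd6 were lower, 2 of 14 tested (14.3%), beside 1.59% of all tested genes called lower. Fzd3 had 133 normalised counts in H3K36M and 447 in control in the authors' deposited table. Its log2 fold change was −1.75 (SE 0.41, 95% interval −2.55 to −0.95, adjusted p = 0.00124), so that 29.8% of the control level was left, by the authors' deposited table. Fzd6 had 1448 normalised counts in H3K36M and 2169 in control, a log2 fold change of −0.58 (SE 0.17, 95% interval −0.92 to −0.24, adjusted p = 0.0283) in the authors' deposited table. Fzd3 lies on chromosome 14 (65192449 to 65262463, minus strand) and Fzd6 on chromosome 15 (39006034 to 39038188, plus strand), both GRCm38. The non-coding gene Gm26704 overlaps exons of Fzd6 on the other strand.

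Per kilobase of exon, Fzd6 was the most abundant receptor transcript in both groups, with 300.4 normalised counts in H3K36M and 450.2 in control, computed from the authors' deposited table. Lgr4, a receptor for R-spondins, followed with 248 per kilobase in H3K36M and 228 in control. Fzd1 had 107 per kilobase in H3K36M and 155 in control, and Fzd3 10.4 in H3K36M and 34.9 in control. The receptor that fell most was therefore a less abundant one, and the most abundant one fell by a smaller factor.

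Of the other abundant receptors none passed the threshold. The log2 fold change was 0.12 for Lgr4 (SE 0.29), −0.18 for Lrp6 (SE 0.23), 0.42 for Lrp5 (SE 1.25), −0.54 for Fzd1 (SE 0.36) and −0.18 for Fzd7 (SE 0.42) in the authors' deposited table. The co-receptors Lrp5 and Lrp6 differed widely in precision. Lrp6 had 876 normalised counts in H3K36M and 993 in control with a 95% interval of −0.62 to 0.26 on the log2 scale, whereas Lrp5 had 658 in H3K36M and 493 in control with an interval of −2.02 to 2.86, in the authors' deposited table. The other 7 tested receptors were Fzd5, Fzd10, Fzd4, Fzd2, Fzd8, Lgr6 and Lgr5, with log2 fold changes from −0.40 to 0.50 and a smallest adjusted p of 0.736 in the authors' deposited table (DESeq2). Lgr5, a marker of stem cells in gut and hair follicle, had 6.26 normalised counts in H3K36M and 8.27 in control, with a log2 fold change of −0.40 (SE 0.74) in the authors' deposited table. Fzd9 had 14.5 normalised counts in H3K36M and 1.80 in control, a log2 fold change of 3.01 with a 95% interval of −0.03 to 6.04 in the authors' deposited table, and no p because the authors' tool marked it as an outlier. Of all 175 genes set aside that way, 151 had a higher level in H3K36M.

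No antagonist passed the threshold among 12 tested, by the authors' DESeq2, and 1 had an unadjusted p below 0.05. That gene was Sfrp1, a secreted frizzled-related protein that binds WNT ligands. It had 251 normalised counts in H3K36M and 423 in control, a log2 fold change of −0.75 (SE 0.37, p = 0.0400, adjusted p = 0.454 by DESeq2) in the authors' deposited table. Apcdd1, a membrane inhibitor of WNT signalling and the antagonist with the highest level before division by length, had 1506 normalised counts in H3K36M and 1758 in control and a log2 fold change of −0.22 (SE 0.50) in the authors' deposited table. Per kilobase of exon Dkkl1 led with 395 normalised counts in H3K36M and 337 in control, followed by Dkk3 with 183 in H3K36M and 211 in control and by Apcdd1 with 117 in H3K36M and 136 in control, computed from the authors' deposited table. Dkk3 and Dkkl1, relatives of the DKK antagonists whose effect on WNT signalling is less settled, had log2 fold changes of −0.20 (SE 0.25) and 0.23 (SE 0.30) in the authors' deposited table. Znrf3, a ubiquitin ligase that removes frizzled receptors from the membrane, had 259 normalised counts in H3K36M and 247 in control, with a 95% interval of −0.43 to 0.56 around a log2 fold change of 0.07 in the authors' deposited table. Wif1, a secreted WNT inhibitor, had 195 in H3K36M and 218 in control, but its log2 fold change of −0.15 carried an SE of 0.93 in the authors' deposited table. The other 6 tested antagonists were Rnf43, Sfrp4, Notum, Dkk2, Sfrp5 and Sfrp2, with log2 fold changes from −1.17 to 1.27 and SEs from 0.69 to 1.49 in the authors' deposited table. Dkk1, the classical DKK antagonist, was read too rarely for a fold to be given.

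No target or effector passed the threshold among 7 tested, by the authors' DESeq2, and 2 had an unadjusted p below 0.05. Axin2, the most widely used readout of β-catenin signalling, had 54.4 normalised counts in H3K36M and 64.9 in control in the authors' deposited table. Its log2 fold change of −0.25 had a 95% interval of −1.75 to 1.24 in the authors' deposited table, which includes a rise or a fall by 1 on the log2 scale. Ctnnb1, the gene of β-catenin, had 10143 normalised counts in H3K36M and 11893 in control, a log2 fold change of −0.23 (SE 0.11, p = 0.0443, adjusted p = 0.479 by DESeq2) in the authors' deposited table. It was the most precisely measured member, with a 95% interval of −0.45 to −0.01. Lef1, a transcription factor that partners β-catenin and is itself a target, had 95.7 in H3K36M and 151 in control, a log2 fold change of −0.66 (SE 0.32, p = 0.0368, adjusted p = 0.434 by DESeq2) in the authors' deposited table. On the log2 scale Tcf7, the other such factor in the set, stood at −0.25 (SE 0.40), and Ascl2, a target in intestinal stem cells, at −0.01 (SE 0.37) in the authors' deposited table. The feedback inhibitors Nkd2 and Nkd1 stood at 0.29 (SE 0.77) and 0.45 (SE 1.26) on that scale in the authors' deposited table. Sp5, a direct target, was read too rarely for a fold to be given.

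How large a change could have been called differed widely between members. The largest p that passed corresponded to a Wald statistic of 3.14, so a member needed a log2 fold change of that many SEs. For Fzd6 this came to 0.55 on the log2 scale, for Wnt5a 0.78 and for Fzd3 1.28, whereas Axin2 would have needed 2.39 and Lrp5 3.91. A log2 change of 1 would have passed for 10 of the 49 tested members. For 41 of 49 the 95% interval reached beyond a log2 change of 1 in at least 1 direction. By the authors' deposited table the median SE was 0.67 among tested members and 0.47 over all genes with an adjusted p. The between-library coefficient of variation implied by the SE, for libraries of equal depth, was 0.216 for Fzd6, 0.308 for Wnt5a and 0.505 for Fzd3. It was 0.280 for Lrp6 and 1.55 for Lrp5, and lay above 1 for 15 of the 49.

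**Figure D3:**
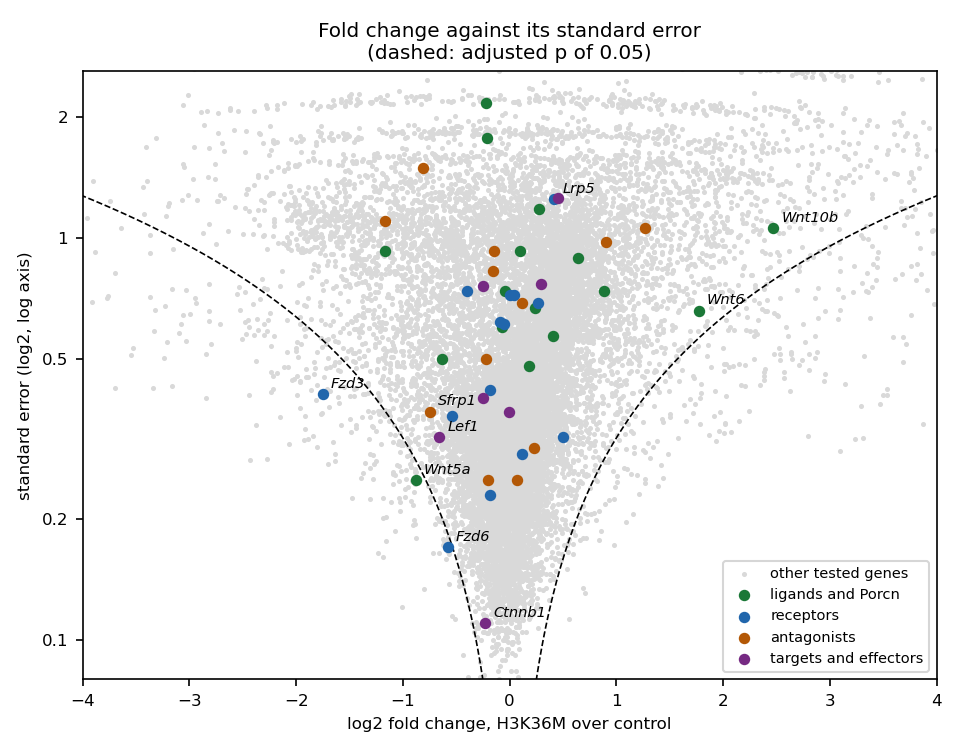
Log2 fold change of H3K36M over control against its standard error (log axis) for the tested members, coloured by role, over all tested genes in grey; the dashed lines mark an adjusted p of 0.05. Fzd3, Wnt5a and Fzd6 lie outside the left line, and Wnt6 and Wnt10b, with log2 fold changes of 1.77 and 2.47, lie inside the right one.

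Genes elsewhere in the pathway were grouped into 7 lists outside the members. By the authors' deposited table, of 64 tested genes 1 was higher and 3 were lower, 6.25% beside 3.43% of all tested genes, with a median log2 fold change of 0.13. An unadjusted p below 0.05 (DESeq2) was reached by 7 of the 64, beside 9.82% of all tested genes. Kremen2 was the higher one, the only call of 6 among co-receptors outside the frizzled family; Kremen proteins are receptors of DKK antagonists that reduce LRP5 and LRP6 signalling. It had 53.9 normalised counts in H3K36M and 9.33 in control, a log2 fold change of 2.53 (SE 0.50, adjusted p = 4.6e-05) in the authors' deposited table. Prickle2, a planar polarity gene, fell to 271 in H3K36M, against 609 in control, a log2 fold change of −1.17 (SE 0.37, adjusted p = 0.0498) in the authors' deposited table. It was 1 call of 10 in its branch, and it lost the call when genes were adjusted over every gene with a p (adjusted p = 0.0563) or over genes with a mean of at least 50 (0.0576). The other 9 genes of that branch, which holds the partners of FZD3 and FZD6, had no call. Among them were Vangl2 (log2 fold change 0.25, SE 0.66) and Celsr1 (0.56, SE 0.77) in the authors' deposited table. Daam1 stood at −0.15 (SE 0.34) and Prickle1 at −0.62 (SE 0.64), and the median of the 10 was 0.15. These genes were named after their values were seen.

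Pygo1, a nuclear partner of β-catenin with few reads, fell to 2.16 normalised counts in H3K36M, against 8.22 in control, a log2 fold change of −1.93 (SE 0.59, adjusted p = 0.0359) in the authors' deposited table, 1 call of 12 in its list. That list held 3 genes at an unadjusted p below 0.05 by DESeq2, and its median log2 fold change was 0.12. Beside Pygo1 these were Ctnnbip1 at −0.51 (SE 0.20) and Tcf7l2 at −0.49 (SE 0.21), both named after their values were seen. Bambi, a WNT target that encodes a decoy receptor of the TGF-β family, was the 1 call of 13 in the list of further target genes. Of all tested genes 1.59% were called lower. Bambi had 285 normalised counts in H3K36M and 1197 in control in the authors' deposited table. Its log2 fold change was −2.07 (SE 0.31, adjusted p = 7.03e-09 by DESeq2). Other targets of that list were named after their values were seen. As log2 fold changes in the authors' deposited table, Ccnd1 stood at 0.23 (SE 0.30), Myc at 0.25 (SE 0.33) and Tnfrsf19 at 0.27 (SE 0.32). Msx2 stood at −1.09 (SE 0.38, adjusted p = 0.0943 by DESeq2), and the median of the 13 was 0.20. Lists with 0 calls by the authors' DESeq2 were WNT secretion and R-spondins (3 tested), other antagonists (5) and the destruction complex with its transducers (15), each with 0 genes at an unadjusted p below 0.05. Wls, the carrier of WNT ligands to the cell surface, had 1933 normalised counts in H3K36M and 1829 in control, and Csnk1a1, a kinase of the destruction complex, 9501 in H3K36M and 10124 in control in the authors' deposited table. Rspo1, an R-spondin, stood at a log2 fold change of −0.09 (SE 1.21) and Tnks2, a tankyrase that destabilises axin, at −0.12 (SE 0.27) in the authors' deposited table. Igfbp4 and Sostdc1, the other antagonists of highest mean level, had log2 fold changes of 0.48 (SE 0.70) and −0.86 (SE 0.48) in the authors' deposited table.

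**Figure D4:**
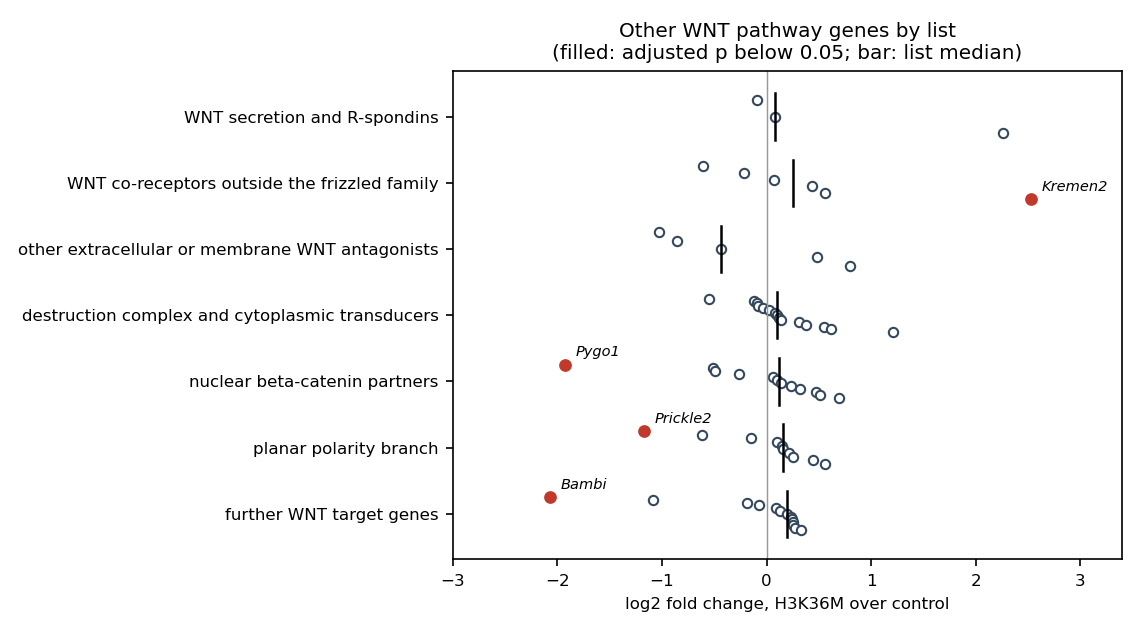
Log2 fold change of H3K36M over control for the 64 tested pathway genes outside the members, by list; filled points passed an adjusted p of 0.05 and bars mark list medians. Kremen2 stands at 2.53, and Prickle2, Pygo1 and Bambi at −1.17, −1.93 and −2.07.

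Promoters of 36 members were found in the RefSeq table (GRCm38.p6, 250 bases before to 50 after each start). The TCF and LEF motifs CTTTGAA and CTTTGAT, searched on both strands, occurred in a promoter of 4 of these 36 members (Dkk1, Sp5, Wnt11 and Wnt5b), 11.1%, beside 9.9% of all 27025 genes in that table. Fzd3, Fzd6 and Wnt5a are not among the 36. Of the called genes outside the members, the higher Kremen2 and the lower Pygo1 held no match, and the lower Prickle2 held a match at 1 of its 4 listed starts. For Bambi, also called lower, no result of the search is given. A window without and the one with a match are shown as examples, picked after the search, with the match in capitals. Kremen2 is chr17:23745780-23746079 and Prickle2 chr6:92567317-92567616, both on the minus strand.
Kremen2: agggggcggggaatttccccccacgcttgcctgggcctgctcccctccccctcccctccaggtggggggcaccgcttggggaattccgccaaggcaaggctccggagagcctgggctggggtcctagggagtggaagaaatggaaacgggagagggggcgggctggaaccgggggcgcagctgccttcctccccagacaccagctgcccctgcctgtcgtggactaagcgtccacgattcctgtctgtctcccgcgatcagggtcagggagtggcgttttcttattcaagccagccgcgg
Prickle2: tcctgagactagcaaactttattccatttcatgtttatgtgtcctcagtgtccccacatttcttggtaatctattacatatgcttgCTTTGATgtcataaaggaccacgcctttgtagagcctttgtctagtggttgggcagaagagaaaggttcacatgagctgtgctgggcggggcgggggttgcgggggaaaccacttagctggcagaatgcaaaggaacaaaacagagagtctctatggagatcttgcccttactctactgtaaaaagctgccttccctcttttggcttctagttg
A match describes the letters of the window and not a bound site.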

How the data were processed

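The authors sequenced single-end directional poly(A) libraries, per the labels' protocols, and the submitters' processing notes list STAR, DESeq2 and GRCm38 (mm10), with no version. Annotation and counting tool are not given in the sources used here. Deposited levels are normalised counts on a signal scale, the mean over 13 samples and the fitted level of each group. The deposited log2 fold change, its SE, the Wald score and the p-values are the authors' as well. In all 19909 genes with reads the sign of the fold change followed H3K36M minus control, and 7 times the control level plus 6 times the H3K36M level equalled 13 times the mean (relative tolerance 1e-06). The means over all 13 samples summed to 15769751 normalised counts per library. Depths of single libraries were not analysed here. The 2 deposited gene ontology tables name no genes and were not used.

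The call is the authors' adjusted p below 0.05 from DESeq2 over 17449 genes, with the sign of the fold change. Intervals of 95% come from the authors' SEs and give the uncertainty of the log2 fold change between groups. They rest on the spread between samples, which may be technical where samples share an animal. A group sum of at most 3 normalised counts in both groups gives no fold. The implied coefficient of variation solves the 2-group negative binomial variance for equal depths. Exon lengths and positions are from GENCODE M21 (97.8% of symbols occurred once there). Python 3.11.15, scipy 1.17.1 and pandas 2.3.3 were used. The adjustment code was tested on simulated fold changes. The dispersion formula was checked only by inverting its own variance equation, which cannot show how well it recovers the spread in these data.

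Members, roles and lists were chosen with earlier results of these data known. Named were members past the threshold, those with an unadjusted p below 0.05, those set aside and the 6 of highest mean in each role. Of each other list the called genes, or else the 2 of highest mean, were named. Exceptions are said beside them, apart from Wnt5b, Lgr5 and Nkd1, which were given values of their own outside this rule. Marker lists are given as summed levels and counts, and some of their genes were named after their values were seen. Calls were recomputed with thresholds of 0.10 and 0.01, over every gene with a p, at means of at least 50 and 10, with a log2 change beyond 1, after centring, and after centring and scaling of the statistic.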

Additional observations from a re-analysis of the deposited data

How the results depend on the processing

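Fzd3, Fzd6 and Wnt5a were the members called lower, and 0 members were called higher, under the threshold of 0.10, adjustment over every gene with a p, means of at least 50 or 10, centring, and centring with scaling, the last chosen after the data were seen. At a threshold of 0.01, and with a log2 change beyond 1, 1 member was lower, Fzd3. Among other pathway genes the lower count was 1 (Bambi) at 0.01 and at a mean of at least 50. It was 2 when adjusted over every gene with a p (Bambi and Pygo1) and at a mean of at least 10 (Bambi and Prickle2). At 0.10, and after centring and scaling, it was 4, with Msx2 added. The higher count was 0 at a mean of at least 50, where Kremen2 falls under the minimum. The adjusted p of Fzd3 ran from 0.000105 to 0.0014 over its alternatives, that of Fzd6 from 0.00511 to 0.0332 and that of Wnt5a from 0.00268 to 0.0198 (DESeq2 statistics by the authors). Centring by the median of all tested genes turned the log2 fold change of Znrf3 to −0.001; it was not called in either case. No paired analysis was possible because the files hold no values of single samples and the labels give no shared replicate numbers; leaving out single samples could not be run for the same reason.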

Other observations

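Some WNT genes lie in pairs in the mouse genome, and the values of such pairs are given here. Wnt6 and Wnt10a are 6.2 kb apart on chromosome 1 and had log2 fold changes of 1.77 and 0.24 in the authors' deposited table. Wnt3a and Wnt9a, 16.2 kb apart on chromosome 11, had 0.41 and 0.64, and Wnt3 and Wnt9b, 24.3 kb apart on the same chromosome, −0.63 and −0.22 in the authors' deposited table. Wnt10b, at 2.47, lies 11.7 kb from Wnt1, which had no reads. Differences within pairs were not tested.

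Pathway genes outside the members that the authors' tool set aside as outliers were Frzb, a secreted frizzled-related antagonist, and Rspo3, an R-spondin ligand of the LGR receptors. Frzb had 62.9 normalised counts in H3K36M and 8.99 in control, and Rspo3 4.44 in H3K36M and 0.819 in control, in the authors' deposited table. Like Fzd9 they carry no p, and which library set them apart cannot be seen.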
